A study of Homo sapiens with 8 samples.

Results

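The transglutaminase family was followed in SET-2 cells as 9 genes out of 25435 in the count table: TGM1 to TGM7, F13A1 and EPB42. The members were picked by symbol, as the enzymes TGM1 to TGM7 with coagulation factor XIII subunit A (F13A1) and band 4.2 (EPB42). The family was singled out because TGM1 was higher with ZRSR2 guides in these same libraries. Knockout against control values are therefore given for the members as a description, with no test.

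SET-2 is a human megakaryoblastic leukemia line that arose from essential thrombocythemia, and the series title places it in JAK2V617F-driven disease. Cells received a GFP-carrying PLKO5 virus with a guide RNA against ZRSR2 (the knockout group, labelled ZRSR2 KO) or a non-targeting guide (the control group, labelled ZRSR2 wildtype), and messenger RNA of the bulk culture was sequenced. Each group had 4 libraries, with guide 1 as replicate 1 and guide 2 as replicate 2 in experiment 1, then guide 1 as replicate 3 and guide 2 as replicate 4 in experiment 2. RNA was taken on day 20 or day 25 after transduction in the 2 biological replicates, which are read here as experiments 1 and 2. All libraries come from 1 cell line, so p-values measure the spread between cultures and guides of that line. In comparisons between experiments that spread is only the one between the 2 libraries, 1 per guide, of each genotype and experiment.

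Transglutaminases join the side chain of a glutamine in a protein to an amine, most often a lysine of another protein, and so weld proteins into a mesh. The reaction runs through a cysteine in the active site and needs calcium. TGM1 is anchored to the membrane of keratinocytes and builds the cornified envelope of skin. TGM2 is the tissue enzyme found in most cell types, which also binds GTP and fibronectin. Factor XIII subunit A stabilises fibrin clots and is known from platelets and their precursors. Band 4.2 has lost the enzyme activity and ties band 3 to the red cell skeleton. Blood lines of the megakaryocyte and erythroid kind are thus known for F13A1 and EPB42, and keratinocytes for TGM1, TGM3 and TGM5.

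The coding sequence around the active-site codon shows how the 5 members that could be tested differ. Each stretch of 45 bases runs 5′ to 3′ on the coding strand, comes from a GENCODE 29 transcript on GRCh38, and has the codon at the active-site position in capitals.
TGM1: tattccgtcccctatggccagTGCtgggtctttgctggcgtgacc
TGM2: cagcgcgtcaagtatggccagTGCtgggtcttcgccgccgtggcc
TGM5: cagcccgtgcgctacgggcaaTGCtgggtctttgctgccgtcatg
F13A1: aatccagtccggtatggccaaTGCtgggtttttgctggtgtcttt
EPB42: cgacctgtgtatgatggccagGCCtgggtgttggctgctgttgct
The capitals spell a cysteine codon in the 4 enzymes and an alanine codon in EPB42. The codon is number 377 of 817 in TGM1, counted from the start codon, and the 45 bases around it lie in exon 7 of 15 at chr14:24259082-24259126. Coordinates for the others are likewise those of the 45 bases. The codon is number 277 in TGM2 (exon 6 of 13, chr20:38146724-38146768), 278 in TGM5 (exon 6 of 13, chr15:43252766-43252810), 315 in F13A1 (exon 7 of 15, chr6:6224693-6224737) and 298 in EPB42 (exon 6 of 13, chr15:43209281-43209325). All 5 are on the minus strand. Of the 45 bases, TGM2 shares 34 with TGM1, TGM5 and F13A1 share 33 each, and EPB42 shares 26. Despite this likeness, no stretch of 30 bases is shared between the transcripts of any members, and none of 3801 such stretches of TGM1 occurs in a transcript of another gene. For EPB42, 13.4% of the stretches also occur in AC068724.4, a transcript on its own strand that is not a row of the count table.

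The depth of the libraries was 31106042 to 71521173 expected counts, and 14898 genes passed the filter on low counts. Counts are also given as CPM, counts per 1000000 of the TMM-scaled library, in which 3 counts correspond to 0.0428 to 0.0971 CPM. ZRSR2, the targeted gene, measured 29.4, 22.9, 28.3 and 18.7 CPM in knockout (replicates 1 to 4 in order, as throughout) and 37.9, 39.2, 39.7 and 41.1 CPM in control. All knockout libraries were thus below the controls and still held ZRSR2 RNA. Of 14 megakaryocyte markers, 12 were at a mean of at least 1 CPM, led by ITGA2B at 2340 CPM, while PPBP was at 0.596 CPM and GP1BB had no count in any library. The culture also expressed erythroid genes, with all 10 markers at 1 CPM or more and HBG2 at 918 CPM. Keratinocyte markers were low: KRT5, KRT14 and DSG3 had no count in any library, and the 8 summed to 9.70 to 17.2 CPM, most of it KRT10. Of 8 monocyte and granulocyte markers 2 reached 1 CPM (LYZ at 230.0 CPM and FCGR1A at 1.04 CPM), and of 8 lymphoid markers 3 did (CD4 at 267 CPM, CD79A at 25.1 CPM and NKG7 at 4.25 CPM).

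Of the 9 members, 6 had counts and 5 passed the filter: TGM1, TGM2, TGM5, EPB42 and F13A1. TGM3 (a hair follicle and skin enzyme), TGM4 (the prostate enzyme) and TGM6 (linked to an inherited ataxia) had 0 counts in all 8 libraries, which allows up to 0.0428 to 0.0971 CPM per library. TGM7 had 1 to 9 counts per library and was not tested. Levels between genes are compared per kilobase of the longest GENCODE basic transcript. TGM2 stood highest at 162 CPM per kb, rank 328 among the 12992 tested genes with a length. TGM5 followed at 22.6, EPB42 at 12.1, TGM1 at 1.73 and F13A1 at 0.0952 CPM per kb. The ranges over the 8 libraries of TGM5 (10.6 to 32.7) and EPB42 (9.11 to 16.4) overlapped, while the other neighbours in this order did not overlap. TGM2 supplied 88.0% to 92.0% of the family's summed CPM, and TGM1 0.189% to 1.26%. The plot of the members by library shows these levels for the 6 genes with counts.

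**Figure D1:**
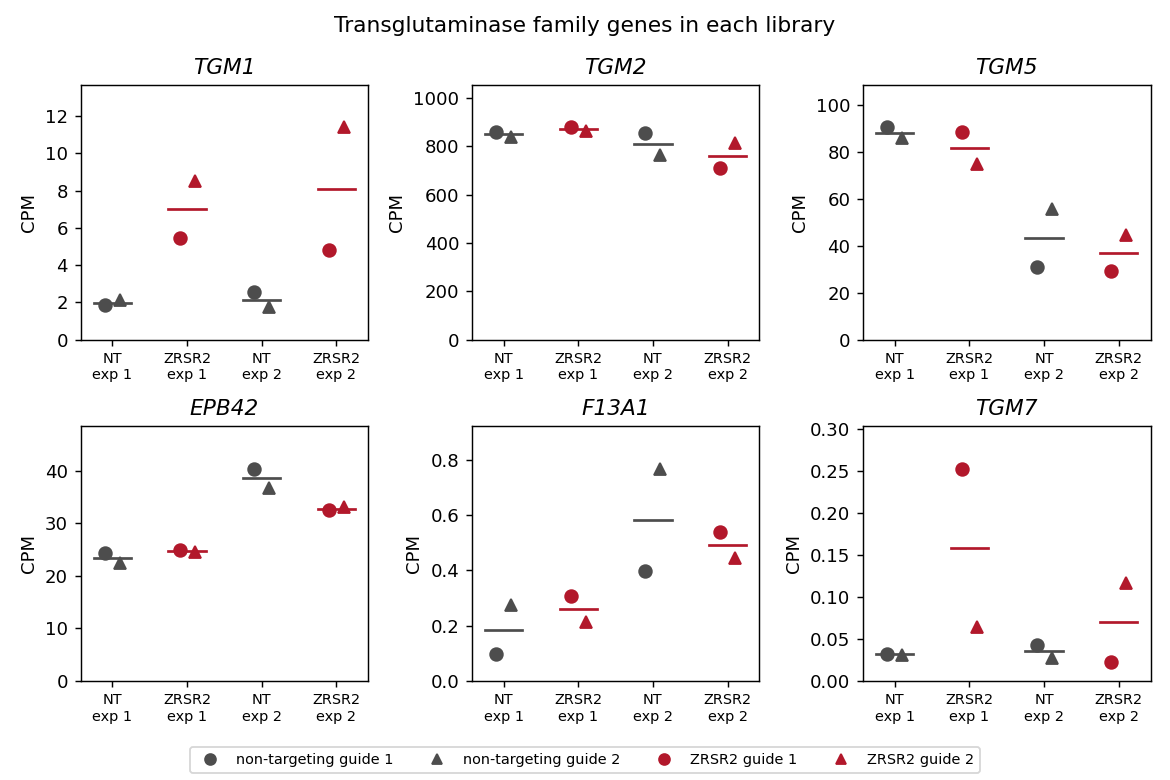
CPM of the 6 members with counts (vertical axis, linear from 0, own scale per panel) in non-targeting (grey) and ZRSR2 guide (red) libraries of experiments 1 and 2; circles are guide 1, triangles guide 2, and bars the mean of 2 libraries. TGM1, for whose rise the family was chosen, is at 4.82 to 11.4 CPM with guides against ZRSR2 and at 1.73 to 2.54 CPM in the controls. TGM5, EPB42 and F13A1 differ between the experiments, where 58.2% of all tested genes were called. F13A1 passed the count filter through experiment 2, where it is high.

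TGM1 (chromosome 14, 24249114 to 24264432, minus strand, GRCh38) was the member that differed between knockout and control. It had 195, 402, 214 and 487 counts in knockout replicates 1 to 4 and 57, 69, 178 and 63 counts in control replicates 1 to 4. On the CPM scale these were 5.48, 8.52, 4.82 and 11.4 in knockout and 1.84, 2.10, 2.54 and 1.73 in control. The lowest knockout library lay above the highest control library. The 178 counts of control replicate 3 came from the deepest library of the series and amount to 2.54 CPM. The means were 7.56 ± 3.03 and 2.05 ± 0.358 CPM (SD, n = 4 each), a ratio of 3.68. The fitted fold change of TGM1 ranked 3 among all 14898 tested genes and was the highest among the 13162 with a mean of at least 1 CPM. The family was chosen for this rise, so the ranks restate that choice and are no further support. Over all 14898 genes, 0 passed in this comparison in edgeR's test (percent called 0), from which nothing is read for the members, since the comparison chose them. In a bulk culture, more TGM1 RNA per cell and more cells with TGM1 RNA cannot be told apart.

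TGM1 was higher in knockout in each experiment, and higher with ZRSR2 guide 2 than with guide 1, though neither the experiments nor the guides differed past the threshold. The fitted log2 fold changes of knockout over control were 1.83 in experiment 1 and 1.90 in experiment 2, and the difference between them was 0.07 (SE 0.54, 95% interval −1.13 to 1.27, edgeR adjusted p 1). Guide 2 gave 8.52 and 11.4 CPM, and guide 1 gave 5.48 and 4.82 CPM. Both guide 2 libraries thus lay above both guide 1 libraries, at a mean of 485% of the control mean against 251%. The log2 difference between the guides was 0.95 (SE 0.30, 95% interval 0.23 to 1.68), with an unadjusted p of 0.0180 and an adjusted p of 1 in edgeR's test, so it did not pass the threshold over all genes. With the experiment as a block it was 0.94 (SE 0.22), with an unadjusted p of 0.000777 and an adjusted p of 1. The non-targeting guides differed by −0.20 (SE 0.31) in TGM1, and their libraries overlapped. Over all genes edgeR called 0 in each of these comparisons (percent called 0): 27 genes had an unadjusted p under 0.05 between ZRSR2 guides, 13 between non-targeting guides and 248 for the difference between experiments, and DESeq2 called 0 in each.

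The order of the knockout libraries by TGM1 was the reverse of their order by ZRSR2, except for the guide 1 pair. ZRSR2 was at 18.7 CPM where TGM1 was highest, at 11.4 CPM, and at 22.9 CPM where TGM1 was at 8.52 CPM. The guide 1 libraries had 28.3 and 29.4 CPM of ZRSR2 with 4.82 and 5.48 CPM of TGM1. Guide 2 libraries averaged 52.7% of the control level of ZRSR2, and guide 1 libraries 73.1%. In the plot of TGM1 against ZRSR2 the 4 control libraries form a group of their own at the lower right.

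**Figure D2:**
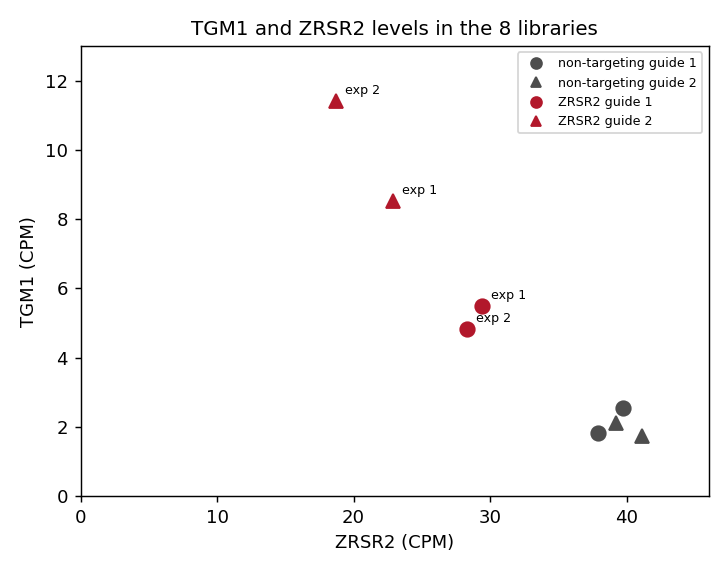
TGM1 (vertical axis, CPM) against ZRSR2 (horizontal axis, CPM) in the 8 libraries; grey points are non-targeting and red points ZRSR2 guides, circles guide 1 and triangles guide 2, with the experiment written beside the red points. The guide 2 libraries hold the least ZRSR2 (18.7 and 22.9 CPM) and the most TGM1 (11.4 and 8.52 CPM).

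Genes whose levels ran most like TGM1 over the 8 libraries were sought by Pearson correlation of log2 CPM among 13161 genes. Among the 5 highest were KIAA0556 (0.953), a gene linked to cilia, RPLP0 (0.914, a ribosomal protein), APP (0.903, the amyloid precursor) and DYNC1LI2 (0.894, a dynein light intermediate chain). The lowest were ZRSR2 (−0.975), AURKA (−0.934, a mitotic kinase) and INTS4 (−0.929, an Integrator subunit). By Spearman INTS4 (−0.952) was below ZRSR2 and AURKA (−0.881 each). Since TGM1 was picked for its difference between ZRSR2 and non-targeting guides, a negative coefficient with ZRSR2 follows from that choice. These coefficients rest on 8 libraries that fall into 2 genotypes and share their depth. The ratio of knockout to control means was 1.44 for KIAA0556, 1.07 for RPLP0, 1.06 for APP and 1.23 for DYNC1LI2, below the 3.68 of TGM1. The other members did not run with TGM1: the coefficient was 0.047 for TGM2, −0.15 for TGM5 and −0.055 for EPB42.

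The 6 protein-coding genes nearest to TGM1 did not show its pattern. RABGGTA, a subunit of Rab geranylgeranyl transferase, lies 1105 bases away on the same strand, on the upstream side. It was at 27.9, 25.4, 23.3 and 24.3 CPM in knockout and 31.4, 29.3, 26.9 and 25.0 CPM in control, so the genotypes overlapped and the knockout mean was 89.5% of control. TINF2, a telomere shelterin protein, lies 6439 bases away on the downstream side and its knockout mean was 101% of control. GMPR2, NEDD8, DHRS1 and NOP9 had knockout means of 91.9% to 104% of control, with overlapping genotypes. TGM1 stood at 368% on the same scale, as the plot of the neighbours shows.

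**Figure D3:**
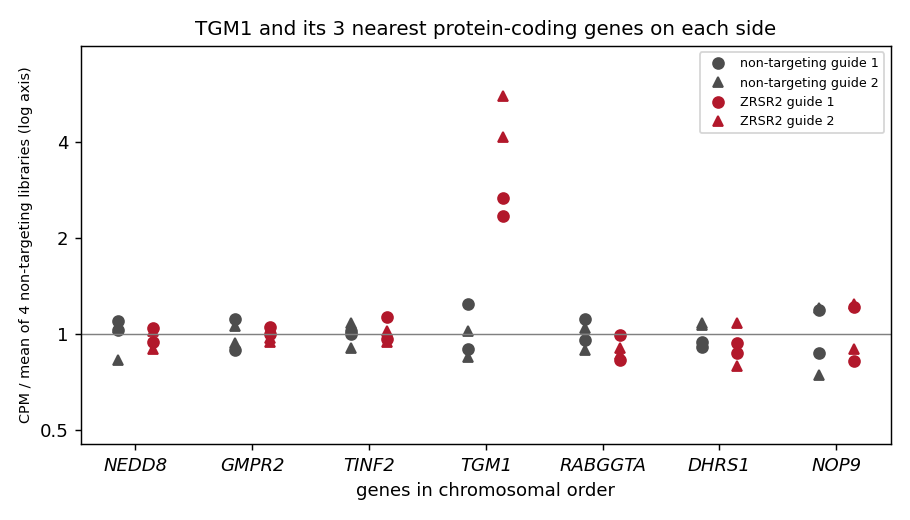
CPM of TGM1 and its 3 nearest protein-coding genes on each side, in chromosomal order, divided by the mean of the 4 non-targeting libraries (vertical axis, log scale); grey points are non-targeting and red points ZRSR2 guides, circles guide 1 and triangles guide 2. The knockout mean of TGM1 is 3.68 times the control mean, and that of each neighbour is 89.5% to 104% of it.

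TGM1's known partners in skin were mostly too low to test. Of 21 cornified envelope proteins and substrates 9 were tested, and 6 had no count in any library. There were 7 at a mean of at least 1 CPM, and the list summed to 139 to 204 CPM per library. Of 12 skin lipid barrier genes, which are mutated in the same group of ichthyoses as TGM1 or act in the same barrier, 3 were tested. None of these 12 tested genes passed between knockout and control, where 0 of all 14898 tested genes did, so nothing is read from it for the lists. Envoplakin (EVPL), a cross-linked envelope protein named after its values were seen, was at 57.3, 45.9, 6.38 and 27.7 CPM in knockout and 49.8, 52.0, 5.17 and 18.5 CPM in control. The genotypes overlapped, while experiment 2 lay below experiment 1 (log2 fold change −1.87, SE 0.42, edgeR adjusted p 0.00297). The keratinocyte marker list summed to 12.4 to 16.5 CPM in knockout and 9.70 to 17.2 CPM in control, with KRT5, KRT14 and DSG3 at 0 in both.

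TGM2 (chromosome 20, 38127387 to 38166578, minus strand, GRCh38) was abundant and nearly level. It was at 878, 864, 708 and 813 CPM in knockout and 859, 839, 853 and 762 CPM in control. The lowest value was knockout replicate 3 and the highest knockout replicate 1, so the knockout range enclosed the control range. The knockout mean was 816 ± 76.9 and the control mean 828 ± 44.8 CPM (SD, n = 4 each). The log2 fold change between experiments was −0.13 (SE 0.07, 95% interval −0.28 to 0.02, edgeR adjusted p 0.118), which did not pass. It passed without control replicate 3 (adjusted p 0.0345) or without knockout replicate 4 (0.0494), with log2 fold changes of −0.173 and −0.183. TGM2 overlaps RPRD1B by 394 bases on the opposite strand, so reads from that stretch are uncertain.

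TGM5, a skin enzyme, and EPB42 are neighbours on chromosome 15 and moved in opposite directions between the experiments. TGM5 (43232595 to 43266857) was at 90.5, 86.0, 88.5 and 74.8 CPM in experiment 1, in the order control replicates 1 and 2 then knockout replicates 1 and 2. In experiment 2 it was at 30.8, 55.7, 29.2 and 44.5 CPM, in control replicates 3 and 4 then knockout replicates 3 and 4. Every experiment 2 library lay below every experiment 1 library, and within experiment 2 the guide 2 library lay above the guide 1 library in both genotypes. The mean fell from 85.0 ± 7.01 to 40.0 ± 12.5 CPM (SD, n = 4 each), or −1.09 on the log2 scale (SE 0.18, adjusted p 0.000373 in edgeR's test). Between genotypes TGM5 overlapped, at 59.3 ± 27.2 CPM in knockout and 65.7 ± 28.0 CPM in control.

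EPB42 (43197227 to 43221125) rose instead. It was at 24.4, 22.5, 24.9 and 24.5 CPM in experiment 1 and at 40.4, 36.7, 32.5 and 33.1 CPM in experiment 2, in the same order of libraries. Every experiment 2 library lay above every experiment 1 library. The means were 24.1 ± 1.08 and 35.7 ± 3.62 CPM (SD, n = 4 each), or 0.56 on the log2 scale (SE 0.08, adjusted p 0.000157 in edgeR's test). In experiment 1 both knockout libraries lay above both controls, and in experiment 2 both lay below. The difference of the knockout effect between experiments was −0.31 on the log2 scale (SE 0.16, 95% interval −0.66 to 0.05, edgeR adjusted p 1) and did not pass. TGM7 lies on the far side of TGM5 from EPB42. It had 9 and 3 counts in knockout and 1 and 1 in control in experiment 1, and 1 and 5 counts in knockout and 3 and 1 in control in experiment 2. At such counts a difference was not detectable.

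F13A1 was close to the limit of detection in these megakaryoblastic cells. It had 11, 10, 24 and 19 counts in knockout and 3, 9, 28 and 28 counts in control, or 0.0971 to 0.769 CPM. Every experiment 2 library lay above every experiment 1 library, at means of 0.539 ± 0.165 and 0.223 ± 0.0931 CPM (SD, n = 4 each). The log2 fold change was 1.25 (SE 0.39, edgeR adjusted p 0.0175). F13A1 passed the count filter through its experiment 2 libraries, which is the group where it is high. The call was lost with DESeq2 (adjusted p 0.0529) and in 4 of 8 fits on 7 libraries: without knockout replicate 2 (0.0609), knockout replicate 3 (0.0524), control replicate 1 (0.0813) or control replicate 4 (0.0524).

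Between experiments edgeR called EPB42 higher and TGM5 lower. F13A1 was called higher as well, but it passed the filter through the experiment where it is high and is not counted here. Under a filter of 10 counts in every library, or with DESeq2, the members called were 2. Of all 14898 tested genes 58.2% were called, 29.6% higher and 28.6% lower, so a call between experiments is not particular to the members. TGM1 was not among them, at a log2 fold change of 0.17 (SE 0.27, 95% interval −0.43 to 0.77, adjusted p 0.609), and the sign turned to −0.202 without knockout replicate 4. Each experiment was a single collection, so the day, any batch and the experiment cannot be told apart. For the same reason these p-values and SDs hold no spread between repeated collections.

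**Figure D4:**
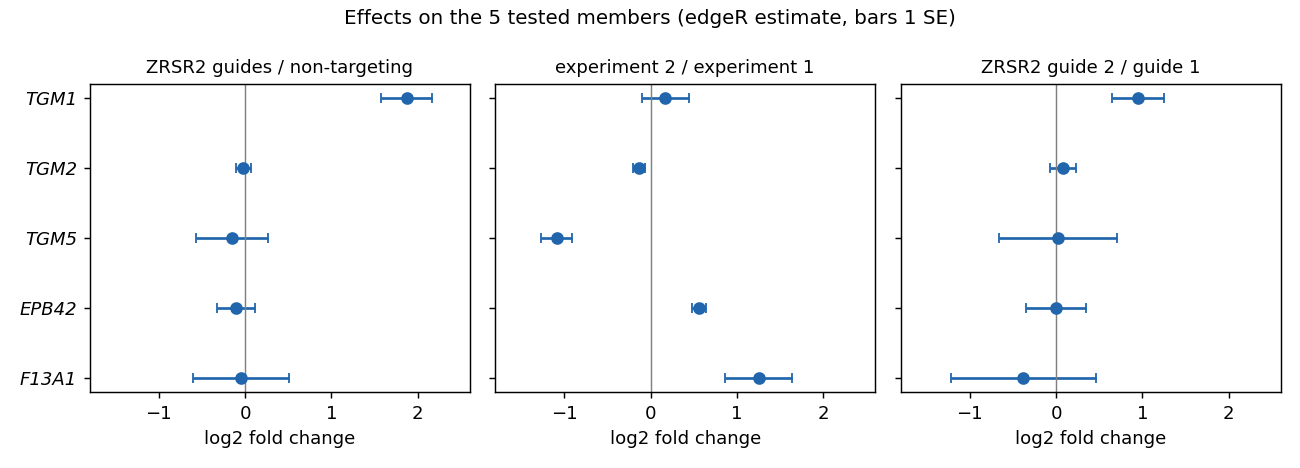
edgeR log2 fold changes (horizontal axis) of the 5 tested members for ZRSR2 guides over non-targeting, experiment 2 over experiment 1 and ZRSR2 guide 2 over guide 1; points are estimates and bars 1 SE. TGM1 lies to the right in the genotype and guide panels (1.87 and 0.95) and near 0 between experiments (0.17), where TGM5 lies at −1.09, EPB42 at 0.56 and F13A1 at 1.25.

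Genes that work with band 4.2 in the red cell membrane were mostly higher in experiment 2, as EPB42 was. Of 18 genes of this complex, all tested, 12 were higher and 3 lower in experiment 2, and 3 did not pass, where 29.6% of all tested genes were higher and 28.6% lower. The median log2 fold change was 0.40, against 0.003 over all genes. SLC2A1, the glucose carrier, rose from 404 ± 42.8 to 777 ± 214 CPM (SD, n = 4 each). RHAG and RHD, of the Rh complex, had log2 fold changes of 0.80 and 1.12. EPB41 (protein 4.1) and DMTN (dematin) fell, with log2 fold changes of −0.24 and −0.25. ICAM4 was the remaining gene that fell, at −0.22, and is named after its values were seen. The call of EPB41 was lost in 2 fits that left out a library, without knockout replicate 1 (adjusted p 0.0507) or control replicate 2 (0.0522). That of DMTN was lost in 4 such fits, with adjusted p-values of 0.0519 to 0.0695, without knockout replicate 1 or 4 or control replicate 1 or 2. Leaving out 1 library at a time, or changing the filter or tool, left 10 to 15 of the 18 called. SLC4A1, band 3, which holds band 4.2 at the membrane, had a log2 fold change of −0.07 (SE 0.08, adjusted p 0.484) between experiments.

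In the genotype comparison the same complex had 15 of 18 genes lower in knockout with a median log2 fold change of −0.09, against −0.003 over all genes, and 0 passed in edgeR's test (1 at an unadjusted p under 0.05). SLC4A1 was at 47.9, 42.7, 40.8 and 40.9 CPM in knockout and at 59.8, 54.0, 60.3 and 54.6 CPM in control, without overlap. EPB42 itself overlapped between genotypes, at 28.8 ± 4.70 CPM in knockout and 31.0 ± 8.86 CPM in control. For the erythroid markers 0 of 10 passed in this comparison. As 0 of all 14898 tested genes passed, nothing is read from these counts of 0. All 10 had an estimate below 0, and their summed level was 2570 to 2800 CPM in knockout and 3020 to 3180 CPM in control. The largest parts of the sum were TFRC and HBG2, at means of 1140 and 918 CPM, and each overlapped between genotypes. TFRC was at 812 to 1270 CPM in knockout and 721 to 1430 CPM in control, and HBG2 at 741 to 950 and 839 to 1370 CPM. The lists share 1 gene. The part of these markers in the result was not tested.

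Partners of factor XIII and TGM2 differed between experiments in both directions, at counts to be read against the 58.2% of all tested genes called. Of 12 fibrin clotting and cross-linking genes 5 were tested. In experiment 2, 3 of them were higher and 1 lower, with a median log2 fold change of 0.87. Clotting factor F5 rose from 24.4 ± 2.15 to 45.1 ± 9.36 CPM, and SERPINF2, the plasmin inhibitor that factor XIII ties to fibrin, from 0.707 ± 0.221 to 2.01 ± 0.444 CPM. THBS1, thrombospondin, fell from 224 ± 25.9 to 60.2 ± 9.81 CPM (SD, n = 4 each throughout). Of 12 TGM2 partners, all tested, 5 were higher and 2 lower, with a median of 0.17, a share called near that of all genes. The receptor LRP1, which takes TGM2 into the cell, rose from 15.6 ± 2.40 to 72.6 ± 11.9 CPM, and PLCD1, a phospholipase that TGM2 can signal through, from 6.18 ± 0.345 to 14.8 ± 1.03 CPM. GPR56, an adhesion receptor that binds TGM2, fell from 80.0 ± 5.67 to 55.2 ± 7.31 CPM. TXN, thioredoxin, fell from 45.8 ± 1.68 to 39.7 ± 3.99 CPM. Its call (edgeR adjusted p 0.0400) was lost with the guides as a block (0.0579), with no count filter (0.0692) and without knockout replicate 1, 2 or 4 or control replicate 1 or 2, where the adjusted p was 0.0668 to 0.172. In the genotype comparison 0 of these 5 and 12 genes passed, where 0 of all 14898 tested genes did. None of them had an unadjusted p under 0.05 in edgeR's fit with genotype alone, against 89 of all genes. FN1 is on both lists.

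Retinoic acid genes were examined because TGM2 is a classic retinoic acid-induced gene. Of 18 listed genes 13 were tested. In experiment 2 there were 5 higher and 6 lower, where 58.2% of all tested genes were called. The median log2 fold change was −0.11. CYP26A1, among the 5, was at 0.061 to 0.227 CPM in experiment 1 and 0.371 to 1.13 CPM in experiment 2. Like F13A1, it passed the count filter through the experiment where it is high. ALDH1A2, which makes retinoic acid, fell from 41.3 ± 8.19 to 1.49 ± 0.0431 CPM, and RDH10, which makes its precursor retinal, from 97.2 ± 6.15 to 21.1 ± 1.89 CPM. CRABP1, a retinoic acid carrier, rose from 1.79 ± 0.141 to 7.29 ± 0.894 CPM, and DHRS3, which turns retinal back to retinol, from 72.4 ± 4.64 to 153 ± 23.1 CPM (SD, n = 4 each). ALDH1A1, the more abundant enzyme of the same step, did not pass, at 0.17 (SE 0.07, edgeR adjusted p 0.0657). TGM2 in the same libraries averaged 860.0 ± 16.3 and 784 ± 62.9 CPM. Between genotypes 0 of the 13 passed, where 0 of all 14898 tested genes did.

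Of the 9 tested cornified envelope genes 2 were higher and 5 lower in experiment 2, with a median of −0.41, where 58.2% of all tested genes were called. KRT1, among the 5, was at 0.742 to 1.15 CPM in experiment 1 and 0.114 to 0.302 CPM in experiment 2. It passed the count filter through experiment 1, where it is high. Periplakin (PPL) rose from 0.422 ± 0.151 to 2.04 ± 0.368 CPM and S100A10 from 28.2 ± 1.49 to 53.9 ± 14.4 CPM. KRT10 fell from 14.6 ± 0.599 to 8.98 ± 1.60 CPM and S100A11 from 92.5 ± 4.67 to 69.7 ± 3.31 CPM. All 3 tested skin lipid barrier genes were higher (5 were called without a count filter), among them SULT2B1 (log2 fold change 1.87) and CYP4F22 (0.94). The plot of the partner lists shows the spread within each list.

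Marker lists also held genes called between the experiments, to be read against the same 58.2%. In experiment 2, 5 of 13 tested megakaryocyte markers were higher and 2 lower, a share near that of all genes, among them TUBB1, the platelet tubulin (log2 fold change 1.28), and the collagen receptor GP6 (−1.87), and the list summed to 3390 to 4190 CPM against 3270 to 3490 CPM in experiment 1. Of 10 erythroid markers 4 were higher and 3 lower (4 in all were called without knockout replicate 3), at sums of 2570 to 3180 against 2790 to 3070 CPM. Of 4 tested keratinocyte markers 1 was higher (DSC3, 1.88) and 3 lower (2 were called in all under a filter of 10 counts in every library), at sums of 9.70 to 13.5 against 15.9 to 17.2 CPM. Of these 3, KRT1 and TP63 passed the count filter through experiment 1, where they are high. TP63 was at 0.305 to 0.572 CPM in experiment 1 and 0.164 to 0.203 CPM in experiment 2. All 3 tested lymphoid markers were higher, at 316 to 396 against 226 to 256 CPM, and 1 of 3 tested monocyte and granulocyte markers was lower (FCGR1A, −1.27; 2 were called without a count filter), at 207 to 268 against 219 to 234 CPM. Their part in the members' differences between experiments was not tested.

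**Figure D5:**
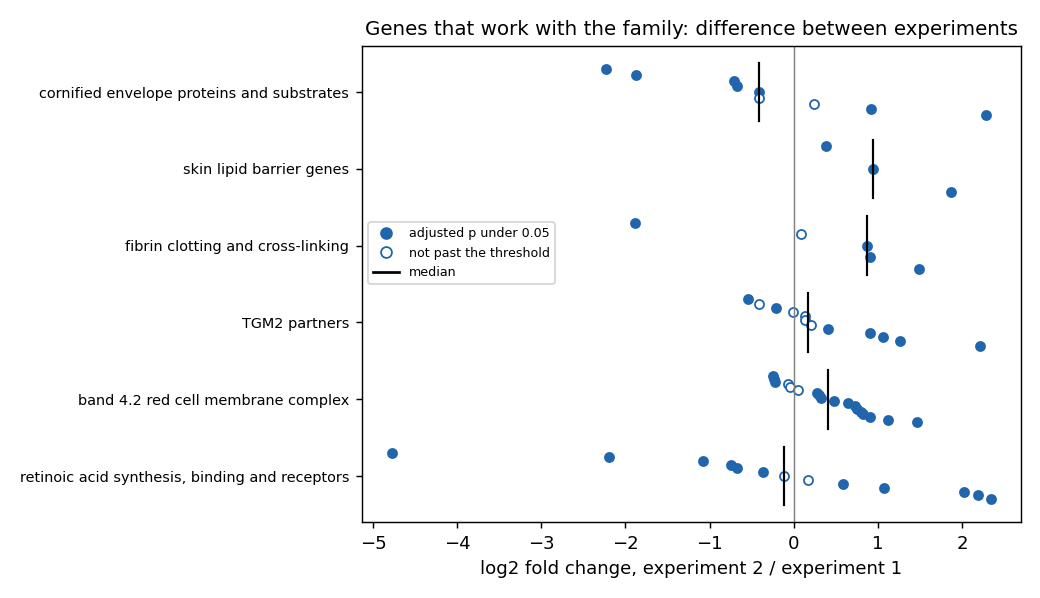
edgeR log2 fold change of experiment 2 over experiment 1 (horizontal axis) for the tested genes of 6 lists of partners (rows); filled points have an adjusted p under 0.05, open points do not, and black bars are the list medians. Band 4.2 complex genes lie mostly above 0, with a median of 0.40, while retinoic acid genes reach from −4.78 (ALDH1A2) to 2.34 (CYP26A1). CYP26A1 passed the count filter through experiment 2, where it is high.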

How the data were processed

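The authors deposited RSEM expected counts per gene symbol for the 8 libraries, per the name of their table. Cutadapt 1.11, RSEM 1.2.30 and the build hg19 are named in the submitters' processing notes. Aligner, annotation and use of strand are not given in the sources used here. Per the labels' protocols, libraries came from a Kapa mRNA kit. Expected counts were already whole, and rounding changed 0 values. Columns were matched by the library number in the sample titles, and 0 columns belonged to other samples.

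Genes were filtered with filterByExpr on genotype (14898 left) and scaled by TMM. Tests were edgeR's quasi-likelihood F test (edgeR 4.0.16, R 4.3.3) and p-values were adjusted by Benjamini-Hochberg across the tested genes, with 0.05 as threshold. The fits had genotype alone, 4 cells of genotype by experiment, or 4 guides. Fits were tested on simulated data. For the fits with genotype or guides alone, the simulated means had no difference between experiments, so that part of the spread was not covered. Log2 CPM used a prior count of 2. DESeq2 1.42.0, other filters and size factors, blocks and fits without each library were alternatives. Libraries of the same experiment deviated together from the genotype means (r 0.678 to 0.846 across genes in 8 knockout and control pairs, against −0.816 to −0.709 in the other 8), so the experiment number of the sample titles was taken as pairing the samples. That this number is the collection day's biological replicate is an assumption. The fits with genotype or guides alone have no term for this pairing, and only the alternatives with the experiment as a block use it. Between knockout and control edgeR gave 89 genes an unadjusted p under 0.05 without the block and 690 with it, and called 0 in both. Counts of any 2 libraries differed beyond sampling noise (chi-square per degree of freedom at least 3.11), so all 8 were counted as separate. Depths of 31106042 to 71521173 counts limit low genes, and the floors of 3 counts express counting error alone, as no molecular identifiers tell copies of a molecule apart.

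Coordinates, lengths and sequences are those of GENCODE 29 on GRCh38 and were joined by symbol, not by position. Named genes are the members, ZRSR2, the 3 nearest protein-coding genes on each side of TGM1, the 5 genes most and 3 least correlated with it, and in each list of partners or markers up to 2 genes per direction with the smallest p between experiments and at least 1 CPM. Of the genes this rule names, 3 are not reported here. Members and lists were chosen with earlier results of these data known. A further ZRSR2 guide of the design was not analysed here.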

Additional observations from a re-analysis of the deposited data

Results flagged for a closer look

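Groups of 4 libraries were examined for a library that stands apart from the other 3, in 30 groups, of which 2 were marked, where chance gives about 1 in 20. TGM7 was at 0.253 CPM in knockout replicate 1, against 0.0305 to 0.0636 CPM in the other experiment 1 libraries, on 9 counts against 1 to 3. The total of control replicate 3 was 71521173 expected counts, against 31106042 to 36544665 in the other controls. In that library the members' CPM lay within the range of the other 7 libraries, except EPB42, which was highest there at 40.4 CPM.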

How the results depend on the processing

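Alternatives gave 985 values for 88 results. In 925 the call and direction, or the size of a count, level or estimate, held. For gene estimates between knockout and control, held means a shift below the SD within genotypes. Their signs and calls were not compared, and some of those signs turned. In the other results calls were lost in 29 and gained in 2, and the sign turned in 20. In 9 cases a count shifted. Between knockout and control edgeR called 0 genes (89 at an unadjusted p under 0.05), and DESeq2 called 2. With the experiment as a block edgeR called 0 (690 at an unadjusted p under 0.05) and DESeq2 called 32. The block gave 0 calls for both guide comparisons too, where 376 and 482 genes had an unadjusted p under 0.05, and changed no other call. The difference of the knockout effect between experiments gave 5 calls without a count filter. Calls between experiments numbered 8092 to 9312 with all libraries and 7178 to 9193 without one, and the members called 2 to 4.

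In the tested comparisons, signs turned only in fits that left out a library, where a lone library of a guide is assumed to vary like the others. The log2 fold change between experiments ran from −0.202 to 0.422 for TGM1. The difference between experiments ran from −0.679 to 0.56 for TGM1 and −0.483 to 0.391 for TGM5. Between ZRSR2 guides it ran from −0.0652 to 0.249 for TGM2, −0.569 to 1.03 for TGM5, −1 to 0.0845 for F13A1 and −0.228 to 0.213 for EPB42. Between non-targeting guides it ran from −0.392 to 0.0567 for TGM1, −0.352 to 1.21 for TGM5 and −0.522 to 0.278 for EPB42. None of these was called. Between ZRSR2 guides TGM1 kept its direction throughout, with no fit below 0.726, and between knockout and control it was at 1.61 to 2.04 without a library. Untested knockout against control estimates near 0 also crossed it, from −0.348 to 0.508 for F13A1, −0.407 to 0.0788 for TGM5, −0.235 to 0.0453 for EPB42 and −0.0583 to 0.0424 for TGM2, and F13A1 was at 0.0314 with the experiment as a block. Of the 5 genes most like TGM1, 3 were in the top 5 by Spearman and 2 with the experiment means taken out. F13A1 was not tested under a filter of 10 counts in every library. Between experiments, the erythroid markers called went from 7 to 4 without knockout replicate 3 and the keratinocyte markers from 4 to 2 under that filter. Without a filter the monocyte and granulocyte markers went from 1 to 2 and the skin lipid barrier genes from 3 to 5. The cause was not tested in any case.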
